A study of Mus musculus with 4 samples.

Results

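The genes described here are 10 transcription factors and markers of gastric or intestinal epithelium, Foxa1, Foxa3, Gata4, Sox2, Cdx2, Hnf4a, Vil1, Krt20, Lgals4 and Zg16, out of 18193 genes on the array. They were picked by name with values of these arrays already known, and every probe set annotated to exactly 1 of these symbols was taken, 17 of the 34945 probe sets with 1 symbol. Endometriotic lesions of mice, that is, endometrium-like tissue growing at other sites, were measured on 4 Affymetrix arrays. A high-fat diet was given in 2 of them, and casein diet, labelled as control, in the other 2. The labels state no genotype, strain, age, time on the diet, way of inducing lesions, or number of animals or lesions behind an array, and they name no agent other than the diets. The values are the authors' normalised probe set intensities on a linear scale, and for each gene the probe set with the highest mean log2 level stands for it. With 2 arrays for each diet, an exact two-sided permutation test can reach no p below 0.333, and nothing says that arrays of one diet came from separate animals, so errors and p-values measure only the spread between these arrays.

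The lining of the stomach and intestine arises from embryonic endoderm. Forkhead (FOXA) and GATA factors act early in endoderm and keep its chromatin accessible. SOX2 then marks the foregut, including the stomach, while CDX2 sets intestinal identity and HNF4A drives genes of mature absorptive cells. Villin (Vil1) bundles actin in brush border microvilli, keratin 20 (Krt20) is a filament protein of mature gastric surface and intestinal cells, and galectin-4 (Lgals4) and Zg16 are lectins of the gut epithelium. Normal uterine epithelium depends on its own forkhead factor, Foxa2, in its glands.

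Of the 10 genes, 9 had their highest level on casein diet replicate 1, and the exception was Cdx2. Casein diet replicate 1 was the highest array for 33.3% of the 12797 genes tested and for 31.3% of all genes on the array, and since the 10 genes were chosen with this pattern in view, their count is a description. It stood over 1 log2 above each other array in 9 of the 10 genes, where 2.19% of tested genes and 2.04% of all genes did. In those 9 genes casein diet replicate 1 exceeded casein diet replicate 2 by 2.66-fold (Gata4) to 20.4-fold (Krt20). In all 10, casein diet replicate 2 in turn lay above both high-fat arrays, by 0.02 to 1.39 on the log2 scale over their mean, where 34.0% of tested genes and 33.3% of all genes did so. On casein diet replicate 2, however, 6 of the 10 genes were near the dim end, as defined below, where differences have no firm order. The high-fat arrays lay within 0.48 log2 of each other for every one of the 10 genes. In bulk tissue, fewer cells of a type and less RNA per cell cannot be told apart.

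A level was taken as near the dim end of an array where it lay below the 40th percentile of that array's probe sets, an intensity of 33.5 to 33.9. As a scale for unused genes, 44 probe sets of olfactory receptor genes had medians of 9.12 and 9.81 on the high-fat diet and 9.71 and 8.68 on the casein diet, with 95th percentiles of 24.8 to 29.6. By this measure 22 of the 40 values of the 10 genes were near the dim end. They were 8 and 7 of the 10 genes on the high-fat diet, against 1 and 6 on casein diet replicates 1 and 2. Foxa1, Foxa3, Gata4, Sox2 and Vil1 reached the 40th percentile only on casein diet replicate 1, Cdx2 reached it on no array, and Lgals4 and Hnf4a reached it on all 4.

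**Figure D1:**
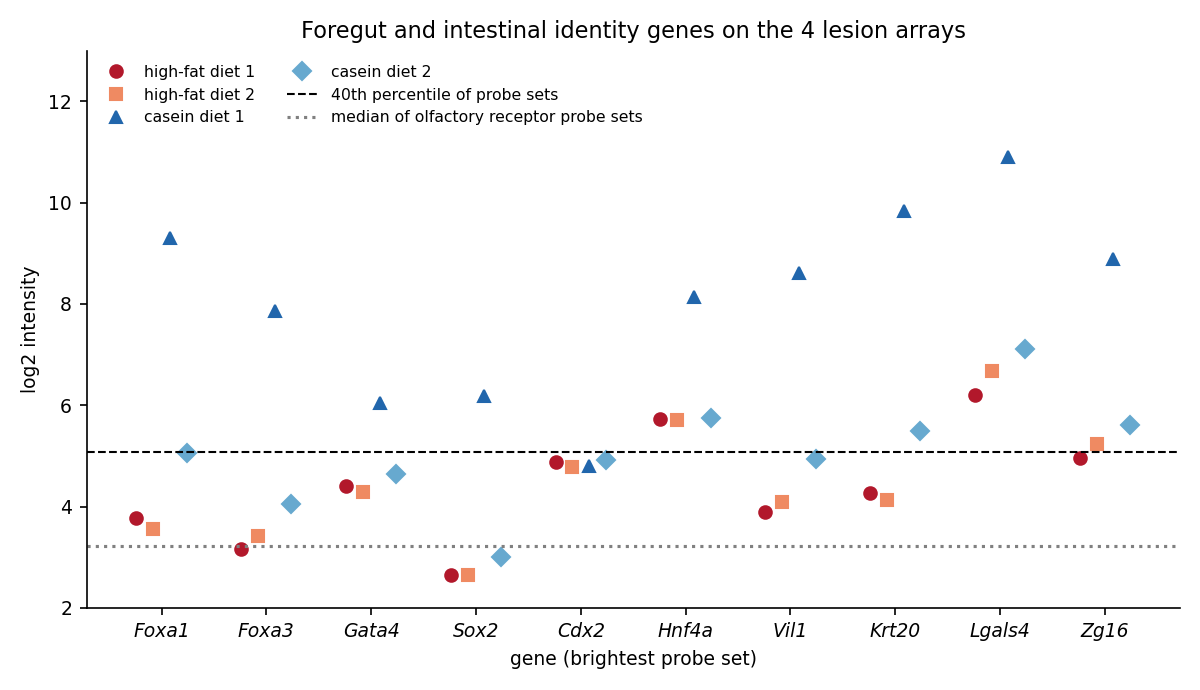
The log2 intensity of the brightest probe set of each of the 10 genes is plotted for each array, with the 40th percentile of probe sets (dashed) and the median of olfactory receptor probe sets (dotted). The upright triangles of casein diet replicate 1 stand apart from the other 3 arrays for every gene except Cdx2, and the high-fat points of each gene lie within 0.48 log2.

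Foxa1, which encodes a pioneer factor that opens endodermal and hormone-responsive chromatin, had intensities of 13.6 and 11.8 on the high-fat diet, against 627.2 and 33.2 on the casein diet. It lay at the 22.1 and 19.3 percentile of the high-fat arrays and at the 91.3 and 39.5 percentile of the casein arrays. The groups did not overlap, but the casein arrays were 4.24 log2 apart. The related factor Foxa3, known for its part in liver and gut gene expression, had 8.98 and 10.7 on the high-fat diet, against 233.7 and 16.6 on the casein diet. Only the 233.7 of casein diet replicate 1 lay above the 95th percentile of olfactory receptor probe sets on its array. Gata4, a zinc finger factor of the stomach and proximal intestine and also of heart and gonads, had 21.2 and 19.6 on the high-fat diet, against 66.0 and 24.8 on the casein diet. Of the 9 genes highest on casein diet replicate 1, Gata4 showed the smallest excess there, and its other probe set was dim throughout, at 11.5 and 10.9 on the high-fat diet and 14.1 and 10.9 on the casein diet.

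Sox2, a factor of foregut and stomach progenitors and of neural tissue, had intensities of 6.27 and 6.26 on the high-fat diet, against 72.7 and 8.05 on the casein diet. On 3 arrays it lay between the 6.51 and 11.6 percentile, and on casein diet replicate 1 it lay at the 55.5 percentile. Cdx2, the factor that sets intestinal against gastric identity, did not share this pattern. It had 29.3 and 27.5 on the high-fat diet, against 27.7 and 30.2 on the casein diet, and the diets overlapped. Its other probe set had 16.6 and 16.04 on the high-fat diet, against 15.3 and 21.1 on the casein diet, so that neither probe set reached the 40th percentile on any array.

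Hnf4a, which encodes a nuclear receptor of liver, pancreas and intestine, had 53.1 and 52.6 on the high-fat diet, against 281.2 and 53.7 on the casein diet. Apart from casein diet replicate 1 its brightest probe set was nearly constant, at the 48.7 to 49.0 percentile. A dimmer Hnf4a probe set gave 5.41 and 4.43 on the high-fat diet, against 86.4 and 7.58 on the casein diet, a difference of -2.39 log2 where the brightest gave -1.22. The remaining Hnf4a probe sets differed by -0.11 and -0.39. The groups did not overlap in any of these 4 probe sets, as in 18.2% of all probe sets with 1 symbol. In the brightest, the high-fat values of 53.1 and 52.6 lay just below the 53.7 of casein diet replicate 2. The probe set that differed by -0.39 lay at the dim end of every array. Those that differed by -2.39 and -0.11 lay at the dim end of every array except casein diet replicate 1. Differences at the dim end have no firm order.

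Vil1 had intensities of 14.8 and 17.1 on the high-fat diet, against 391.7 and 30.7 on the casein diet. Krt20 had 19.4 and 17.5 on the high-fat diet, against 917.1 and 44.95 on the casein diet. The 20.4-fold gap between the casein arrays in Krt20 was the widest among the 10 genes, and casein diet replicate 2 reached the 45.5 percentile against 28.9 and 27.0 on the high-fat diet. Lgals4 had 73.5 and 102.8 on the high-fat diet, against 1908 and 139.0 on the casein diet, and it lay at the 55.4 percentile or higher on every array. Zg16, a lectin of goblet cell mucus and of pancreatic zymogen granules, had 31.0 and 37.7 on the high-fat diet, against 475.0 and 48.7 on the casein diet. Its dimmer probe sets moved alike, 1 with 9.60 and 11.2 on the high-fat diet against 330.9 and 18.3 on the casein diet, and 1 with 12.9 and 14.5 against 124.9 and 15.9.

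Over all 17 probe sets, casein diet replicate 1 was highest in 15, the other 2 being those of Cdx2, where it was highest in 30% of all probe sets with 1 symbol. Both high-fat arrays lay below both casein arrays in 14 of the 17, and in 18.2% of all probe sets with 1 symbol. The 4 probe sets below the 40th percentile on all arrays were both of Cdx2, 1 of Gata4 and 1 of Hnf4a.

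**Figure D2:**
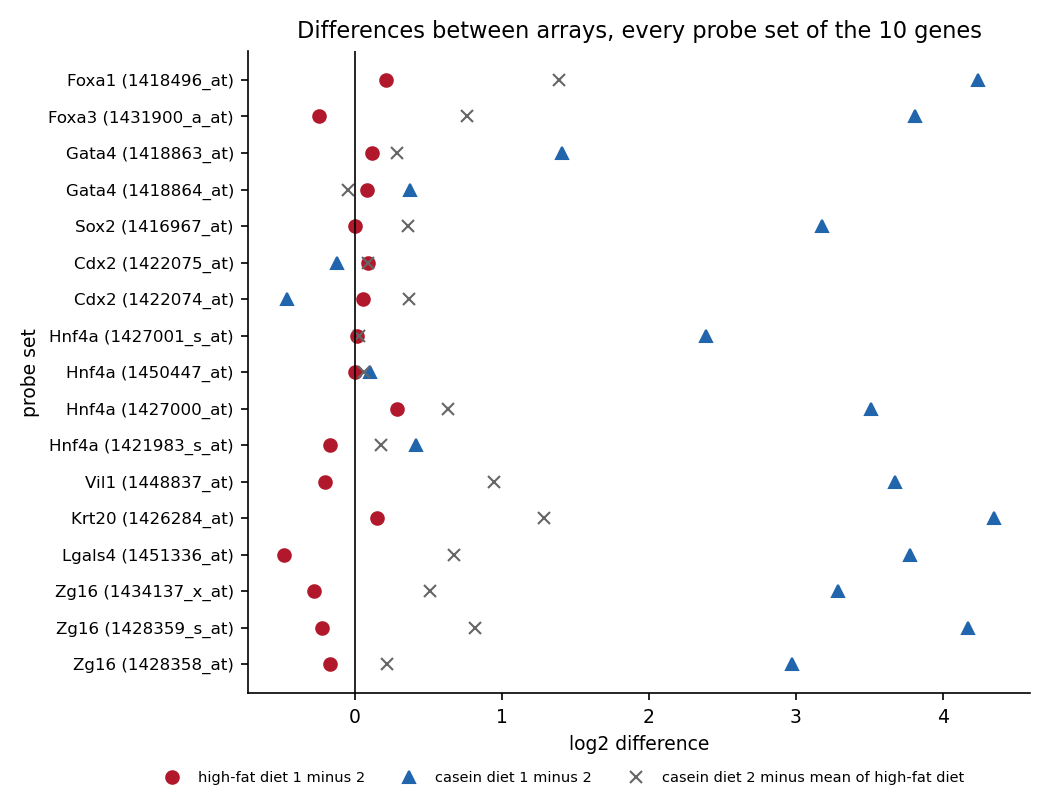
For each of the 17 probe sets, the log2 difference is plotted between the high-fat arrays (red circles), between the casein arrays (blue triangles), and between casein diet replicate 2 and the high-fat mean (grey crosses). The triangles reach 4.35 for Krt20, while the probe sets of Cdx2 lie near or below 0.

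High-fat and casein diets were compared in limma's model across the 12797 genes whose mean level reached the 40th percentile, and 0 genes passed at a Benjamini-Hochberg adjusted p under 0.05 (0.0% of those tested, smallest adjusted p = 0.823). At an unadjusted p under 0.05 there were 287 higher and 349 lower genes on the high-fat diet (2.24% and 2.73% of those tested). Without casein diet replicate 2, the high-fat minus casein difference was -5.63 log2 for Foxa1 and -5.64 for Krt20. That leaves 1 casein array, the one on which these genes were high when chosen. Of the 10 identity genes, 6 reached the filter, and Foxa3, Gata4, Sox2 and Cdx2 did not, so their errors come from the fit without a filter. Among those 6, Foxa1 and Vil1 reached it through casein diet replicate 1 alone, and Krt20 was near the dim end on both high-fat arrays. The differences are given as high-fat minus casein on the log2 scale, as a description, since these genes were chosen on the same arrays. Foxa1 averaged 3.66 ± 0.15 log2 on the high-fat diet and 7.17 ± 2.998 on the casein diet (SD, n = 2 each), a difference of -3.51 (SE 1.54, 95% interval -7.88 to 0.86). Krt20 differed by -3.46 (SE 1.58), Vil1 by -2.78 (SE 1.34) and Foxa3 by -2.67 (SE 1.38). Lgals4, Zg16 and Sox2 differed by -2.57, -2.15 and -1.95, with SEs of 1.38, 1.20 and 1.14. Hnf4a and Gata4 differed by -1.22 (SE 0.87) and -0.99 (SE 0.52), and Cdx2 by -0.03 (SE 0.10, 95% interval -0.32 to 0.27). All 10 intervals included 0.

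Both high-fat arrays lay below both casein arrays for 9 of the 10 genes, and this held for 19.3% of tested genes and 18.7% of all genes on the array. The median difference was -2.36, against -0.01 over the genes tested. Without casein diet replicate 1 the median was -0.59, and the values were -1.39 for Foxa1, -1.29 for Krt20, -0.95 for Vil1, -0.76 for Foxa3, -0.68 for Lgals4 and -0.51 for Zg16. The remaining ones were -0.36 for Sox2, -0.29 for Gata4, -0.09 for Cdx2 and -0.02 for Hnf4a. Without casein diet replicate 2 the median was -4.13. With 1 array left out, the high-fat arrays lay below the casein arrays for 10 of the 10 genes and 31.6% of tested genes (high-fat diet replicate 1 left out), or 9 and 37.9% (high-fat diet replicate 2 left out). For casein diet replicate 1 left out it was 10 of the 10 genes and 34.0% of tested genes, and for casein diet replicate 2 left out 9 and 38.7%. Groups that do not overlap stay apart when an array is left out, so these counts could not fall below 9.

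**Figure D3:**
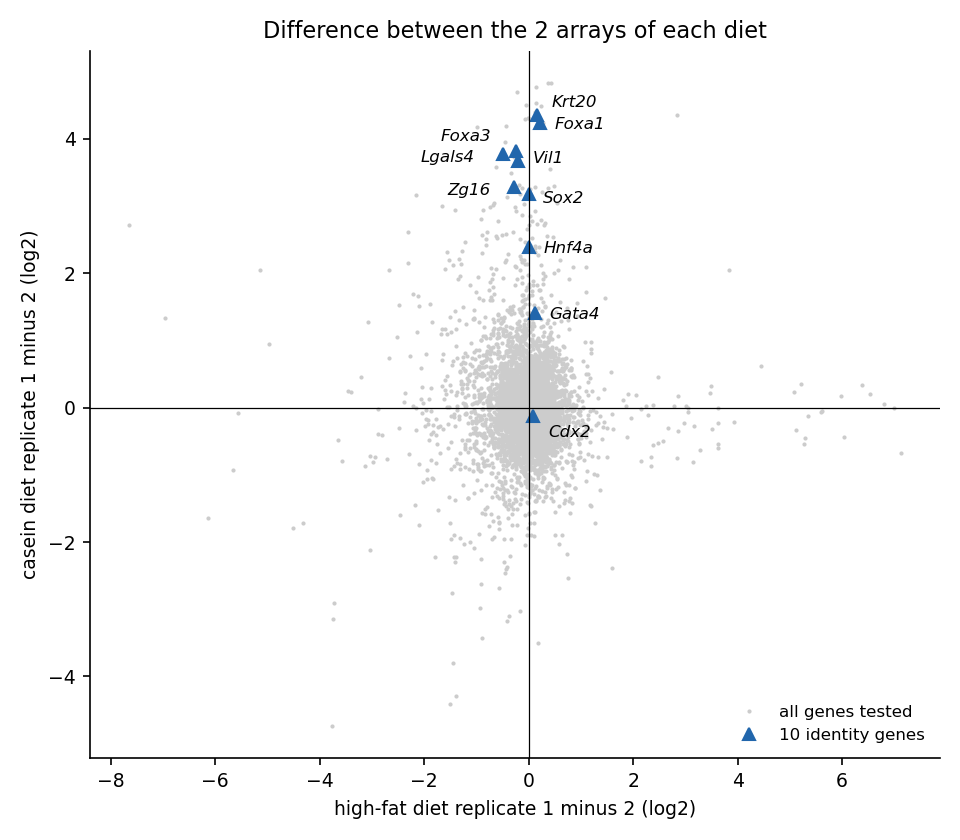
Each point is a gene, with the log2 difference between the high-fat arrays on the x axis and between the casein arrays on the y axis, grey for the genes tested and blue triangles for the 10 identity genes. Apart from Cdx2 at -0.13, the identity genes lie between 1.41 and 4.35 on the y axis and within 0.48 of 0 on the x axis.

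Other regulators of gut endoderm were uneven. Of 28 such factors on the array, 9 were near the dim end on all arrays and 16 reached the filter, 13 with lower and 3 with higher means on the high-fat diet (median -0.52). Of all 12797 genes tested, 6575 had lower and 6217 higher means. None of the 16 passed limma's test in either direction. The largest differences were those of Klf4, a factor of differentiated epithelium (-1.36, SE 0.79), Bhlha15, a secretory cell factor (1.32, SE 0.75), Sox9 (-1.31, SE 0.38) and the epithelial factor Elf3 (-1.18, SE 0.49). Klf4 had intensities of 479.1 and 523.8 on the high-fat diet, against 2731 and 607.1 on the casein diet. Bhlha15 had 48.4 and 198.4 on the high-fat diet, against 43.6 and 35.1 on the casein diet, so that only high-fat diet replicate 2 was high. Foxa2, named here after its values were seen, had 44.5 and 86.1 on the high-fat diet, against 169.5 and 54.9 on the casein diet, so its groups overlapped where those of Foxa1 and Foxa3 did not.

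Some further intestinal genes, named after their values were seen, were not highest on casein diet replicate 1. The intestinal factor Cdx1 had 9.93 and 8.96 on the high-fat diet, against 9.20 and 8.85 on the casein diet. Isx, an intestinal homeobox gene, had 16.1 and 15.2 on the high-fat diet, against 15.985 and 15.009 on the casein diet. The goblet cell mucin Muc2 had 21.6 and 21.0 on the high-fat diet, against 18.7 and 22.1 on the casein diet, and the intestinal cadherin Cdh17 had 8.90 and 10.6, against 9.04 and 9.92. All 4 were near the dim end on every array, like Cdx2. Cdx2 and these 4 genes did not share the pattern of the other 9. As the 4 were named after their values were seen, they are no check of the intestinal part of the name. They do not stand for intestinal genes as a whole, since Fabp2, Lypd8 and Spink4, described below, were high on casein diet replicate 1. The lists give no single answer on that part of the name. Among the 10 genes the widest differences were those of Foxa1, Krt20, Vil1, Foxa3 and Lgals4.

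Enterocyte genes nevertheless included some with the same high array. Of 28 brush border and absorption genes on the array, 14 were near the dim end on all arrays and 6 reached the 40th percentile on casein diet replicate 1 alone. These 6, chosen by that pattern, were Fabp2, Apoa1, Alpi, Myo1a, Eps8l3 and Rbp2. Fabp2, the intestinal fatty acid-binding protein gene, had 7.37 and 7.14 on the high-fat diet, against 792.5 and 28.5 on the casein diet. Alpi, intestinal alkaline phosphatase, had 17.0 and 18.3 on the high-fat diet, against 135.9 and 24.5 on the casein diet, and Myo1a, a brush border myosin, had 17.6 and 20.6 on the high-fat diet, against 164.7 and 19.0 on the casein diet. Of the 10 that reached the filter, 7 were lower and 3 higher on the high-fat diet and 0 passed. Lower means were found in 6575 of all 12797 genes tested. The largest differences were -1.32 for the microvillus actin bundler Pls1 (SE 0.78), -0.76 for Apoa1 (SE 0.53), -0.65 for the peptidase gene Dpp4 (SE 0.45) and -0.58 for the retinol-binding protein gene Rbp2 (SE 0.51).

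Of 10 tested goblet and secretory genes, 9 were lower on the high-fat diet (median -1.09). Of 11 tested colon surface genes 7 were (median -0.84), against 6575 of all 12797 genes tested. None in either list passed limma's test. Agr2, Spink4 and Lypd8 were near the dim end on both high-fat arrays and reached the filter through the casein arrays. These medians are therefore on another basis than that of the 10 genes. Agr2, a chaperone of mucin folding in secretory cells, had 24.2 and 23.9 on the high-fat diet, against 2782 and 291.5 on the casein diet (-5.23, SE 1.18). Spink4, a goblet cell peptide gene, had 25.5 and 21.0 on the high-fat diet, against 543.9 and 28.9 on the casein diet. Chgb, a granule protein gene of endocrine cells, and Clca1 differed by -2.16 (SE 0.88) and -1.63 (SE 0.94). Lypd8, which encodes an antibacterial protein of colon epithelium, had 13.4 and 9.93 on the high-fat diet, against 2038 and 71.6 on the casein diet (-5.05, SE 1.76). Tspan8 and Ceacam1 differed by -1.54 (SE 0.73) and -1.22 (SE 0.44). Car4, a membrane carbonic anhydrase gene, had a higher mean on the high-fat diet (2.19, SE 2.31), with 17.8 and 1255 on the high-fat diet, against 18.5 and 57.8 on the casein diet, and only high-fat diet replicate 2 was high.

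Markers of other tissues were set beside the 10 genes, and their part in the result was not tested. Gastric gland and surface genes had a summed intensity of 803.5 and 1508 on the high-fat diet, against 81629 and 11217 on the casein diet, over 23 genes on the array. Of the 14 tested, 13 were lower on the high-fat diet (median -4.57), as were 6575 of all 12797 genes tested. Casein diet replicate 1 was the highest array for 12 of the 14, against 33.3% of all genes tested. A gene could reach the filter through the casein arrays alone. Gkn2 did so, with 22.3 and 17.4 on the high-fat diet, against 14933 and 2548 on the casein diet. This median is therefore on another basis than that of the 10 genes. Gkn2, Gkn1, Anxa10 and Tff2, genes of stomach surface and mucous cells, differed by -8.29, -7.42, -7.05 and -5.97. The acid-secreting cell gene Atp4b, named after its values were seen, stayed between 41.5 and 46.6 on all arrays, and Lipf, gastric lipase, was near the dim end on all of them. Of the 23 genes, 2 were near the dim end on all arrays, and 7 left it on casein diet replicate 1 alone. These 7 included Pgc, with 17.8 and 17.8 on the high-fat diet, against 72.4 and 18.9 on the casein diet. They also included Cblif and Ghrl, at 201.4 and 159.5 on casein diet replicate 1, against 23.5 and 20.8 on casein diet replicate 2. Atp4b and Lipf therefore do not stand for the list as a whole. General epithelial genes, all 24 above the dim end, summed to 7732 and 14062 on the high-fat diet, against 32604 and 15502 on the casein diet, with 18 highest on casein diet replicate 1. The keratin genes Krt19, Krt8 and Krt7 differed by -2.39, -1.91 and -1.58 and the junction gene Tjp3 by -1.13.

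Of 16 uterine epithelial markers, looked at because endometriotic tissue resembles the uterine lining, 1 (Foxj1) was near the dim end on all arrays. They summed to 14651 and 25447 on the high-fat diet, against 16721 and 28339 on the casein diet, and 3 of 15 tested genes were highest on casein diet replicate 1. Much of the gap between the high-fat sums came from Prap1, with 488.0 and 9726 on the high-fat diet, against 1424 and 4675 on the casein diet. Muc1, Ovgp1, Wnt7a and Cxcl15 differed by -1.31, -1.15, -0.96 and 0.92. Mesothelial markers were lower on the high-fat diet for 7 of 13 tested genes, near the share over all genes tested (6575 of 12797). The largest differences were -2.43 for Upk3b, -1.66 for Msln, -1.26 for Slurp1 and -1.11 for Gpm6a. The list summed to 4512 and 3343 on the high-fat diet, against 3888 and 3423 on the casein diet. Those sums hold bright genes such as Sulf1, with 1605 and 674.3 on the high-fat diet, against 539 and 1067 on the casein diet. Upk3b had 17.0 and 23.5 on the high-fat diet, against 140.3 and 82.7 on the casein diet. Of 17 exocrine pancreas genes 10 were near the dim end on all arrays, including Cpa1 and Ptf1a, named after their values were seen. Cela1 had 199.1 and 159.9 on the high-fat diet, against 1443 and 215.4 on the casein diet, and Clps, Ctrl and Ctrb1 differed by -1.23, -0.35 and 0.19. Of 16 liver genes 11 were near the dim end on all arrays, and 3 were tested. The plasma protein genes Ttr and Alb differed by -2.54 and -1.15 and were highest on casein diet replicate 1. Cyp2e1, a liver cytochrome gene, differed by 0.44 and was highest on high-fat diet replicate 2, with 21.4 and 78.6 on the high-fat diet, against 26.4 and 34.7 on the casein diet. Ovary markers summed to 2551 and 969.6 on the high-fat diet, against 1118 and 1187 on the casein diet. Without Inhba, an activin subunit gene at 1679 on high-fat diet replicate 1, they summed to 871.7 and 765.8, against 866.5 and 934.9 on the casein diet. Inhba, Star, Foxl2 and Inha differed by 1.22, -0.64, -0.14 and 0.08. Nerve markers summed to 592.5 and 544.5, against 845.4 and 665.0 on the casein diet, and cardiac muscle markers to 1119.7 and 1003, against 634.8 and 916.7. The nerve and glia genes Ngfr, Ret, Stmn2 and Sox10 differed by -0.68, -0.42, -0.18 and 0.09. Hand2, Tnnt2, Actc1 and Tnni3 of the cardiac muscle list differed by 0.73, 0.56, 0.48 and 0.11. Much of the cardiac sums came from Hand2, with 510.0 and 640.6 on the high-fat diet, against 254.1 and 466.7 on the casein diet. The 3 tested urothelium and prostate genes, Krt15, Trp63 and Upk2, differed by 1.33, 1.32 and 0.07. Over all these lists 0 of 143 tested genes passed limma's test (smallest adjusted p = 0.849). An unadjusted limma p under 0.05 was found for 23 of these 143, a larger share than the 636 of all 12797 genes tested (4.97%). The lists were chosen with earlier results of these data known, and a gene could reach the filter through the casein arrays alone. The larger share is therefore a description.

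**Figure D4:**
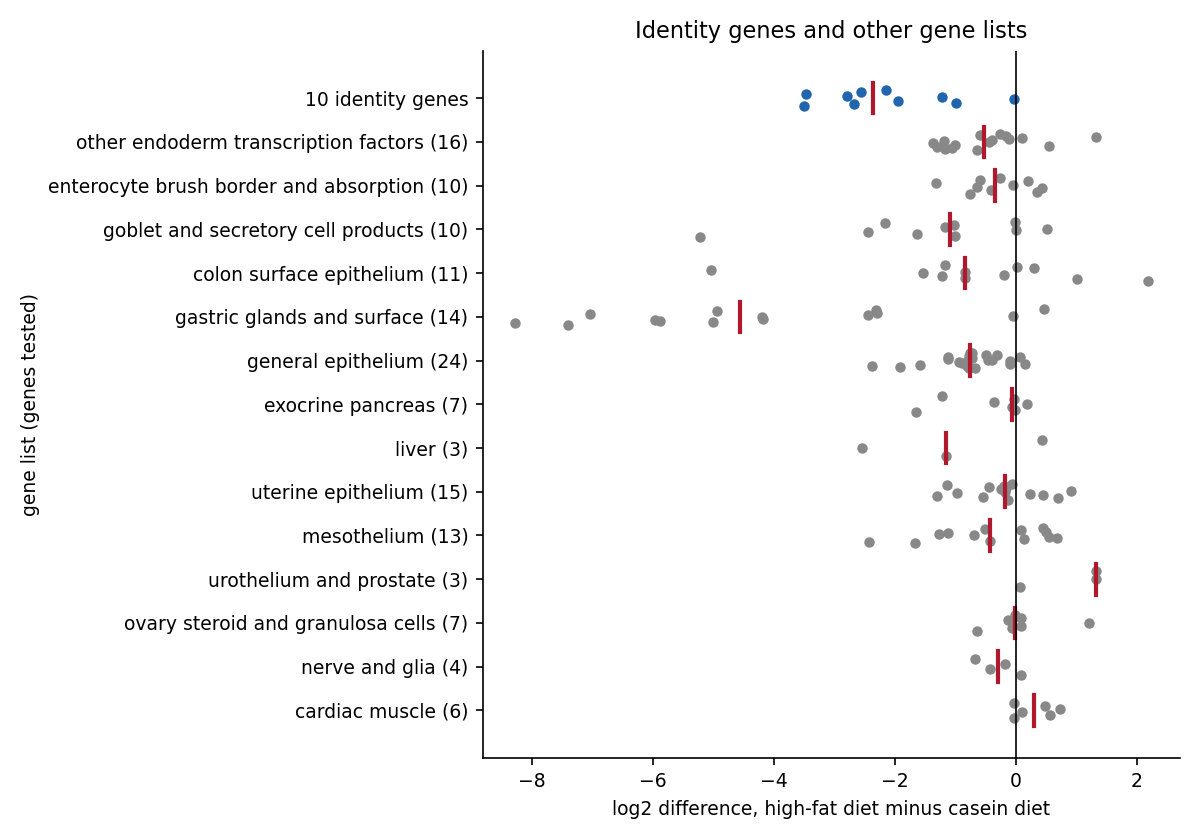
Dots are genes, placed by their log2 difference between high-fat and casein diets, with the median of each list as a red bar and the number of tested genes in brackets. The 10 identity genes, all shown whether or not they reached the filter, have a median of -2.36. The other lists hold only genes that reached the filter, which a gene could do through the casein arrays alone. Among those lists the gastric one is the farthest below 0 at -4.57, on another basis than the 10 genes.

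Genes with the most similar profile were found by the Euclidean distance between mean-centred log2 levels over the 4 arrays, among 13317 genes that reached the 40th percentile on at least 1 array. With 4 arrays and 1 of them far above the rest, a small distance says little beyond a similar size of that excess. For both Foxa1 and Krt20 the nearest 5 were Ugt2b34, Gsdma2, Fam3b, Teddm3 and Shh, at distances of 0.28 to 0.62 from Foxa1 and 0.22 to 0.52 from Krt20. Shh, the hedgehog ligand, had intensities of 10.9 and 12.8 on the high-fat diet, against 510.1 and 19.7 on the casein diet. For Foxa3, Vil1 and Lgals4, the nearest 5 of each included Psapl1, Ptprn2 and Psca. Foxa3 and Vil1 also had Nqo1, Foxa3 and Lgals4 had Syt16, Vil1 had Sult1b1, and Lgals4 had Ces1f. Psca had 35.6 and 48.4 on the high-fat diet, against 967.9 and 53.0 on the casein diet.

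The nearest genes to Sox2 were Bcas1, Cblif, Phgr1, Stx19 and Mgst3, and those to Zg16 were Nkx6-3, Cblif, Bcas1, Gsta4 and Gast. Cblif, the gene of gastric intrinsic factor, had 15.2 and 17.7 on the high-fat diet, against 201.4 and 23.5 on the casein diet. Nkx6-3, a homeobox factor of the distal stomach, had 8.12 and 10.6 on the high-fat diet, against 119.6 and 14.0 on the casein diet. Nearest to Hnf4a were Rep15, Aadac, Tmem238l, Ces2g and Foxq1, at distances of 0.12 to 0.20. Nearest to Gata4 were Me2, Sox21, Ldoc1, Paqr4 and Chst8, at distances of 0.08 to 0.15. Sox21, a relative of Sox2, had 152.3 and 142.5 on the high-fat diet, against 519.2 and 179.3 on the casein diet.

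Promoter sequence is shown for 4 genes that were high on casein diet replicate 1 and for Cdx2, which was not. The windows are the 250 bases before the gene start from RefSeq (GRCm38.p6), written 5′ to 3′ on the gene's strand, and 8 of the 10 genes had 9 windows in all. Capitals mark matches, on either strand, to the forkhead letters TGTTTAC, the GATA letters AGATAA, the CDX letters TTTAT and the HNF4 letters CAAAG. Of 32851 mouse windows of the same length, 3.17% hold the forkhead letters, 9.99% the GATA letters, 37.3% the CDX letters and 48.6% the HNF4 letters.
Foxa1 (chr12:57546112-57546361, minus strand): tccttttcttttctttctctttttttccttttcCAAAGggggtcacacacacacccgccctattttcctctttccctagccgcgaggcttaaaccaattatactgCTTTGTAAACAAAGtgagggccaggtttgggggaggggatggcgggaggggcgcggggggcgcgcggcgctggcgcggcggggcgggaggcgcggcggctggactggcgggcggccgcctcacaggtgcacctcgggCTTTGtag
Hnf4a (chr2:163506607-163506856, plus strand): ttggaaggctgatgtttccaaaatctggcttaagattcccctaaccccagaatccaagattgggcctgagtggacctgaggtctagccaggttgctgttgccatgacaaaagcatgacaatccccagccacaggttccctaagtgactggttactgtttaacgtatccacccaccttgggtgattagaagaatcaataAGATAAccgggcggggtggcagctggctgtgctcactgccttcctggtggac
Vil1 (chr1:74409134-74409383, plus strand): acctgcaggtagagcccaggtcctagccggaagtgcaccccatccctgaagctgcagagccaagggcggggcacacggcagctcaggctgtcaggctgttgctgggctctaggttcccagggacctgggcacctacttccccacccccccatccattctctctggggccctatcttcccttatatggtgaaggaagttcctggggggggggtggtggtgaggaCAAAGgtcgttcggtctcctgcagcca
Krt20 (chr11:99438154-99438403, minus strand): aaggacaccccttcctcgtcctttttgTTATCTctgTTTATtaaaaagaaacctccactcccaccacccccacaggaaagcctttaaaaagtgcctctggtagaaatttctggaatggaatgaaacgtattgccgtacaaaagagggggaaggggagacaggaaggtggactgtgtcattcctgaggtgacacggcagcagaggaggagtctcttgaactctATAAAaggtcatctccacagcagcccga
Cdx2 (chr5:147307250-147307499, minus strand): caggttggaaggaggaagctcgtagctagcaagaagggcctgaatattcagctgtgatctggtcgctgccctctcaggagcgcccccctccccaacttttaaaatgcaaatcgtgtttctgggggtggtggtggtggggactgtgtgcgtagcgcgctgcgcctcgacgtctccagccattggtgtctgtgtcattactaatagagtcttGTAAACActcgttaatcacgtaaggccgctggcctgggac

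The Foxa1 window holds the forkhead letters on the opposite strand from position -141, counted from the gene start, where they overlap an HNF4 match on each side, and 4 HNF4 matches in all. The Hnf4a window, the upstream one of 2 RefSeq starts, holds the GATA letters from position -52, and the other Hnf4a window holds none of the 4 motifs. The Vil1 window holds the HNF4 letters from position -27 and no other match. The Krt20 window holds the GATA letters on the opposite strand from position -223, and the CDX letters from position -214 and, on the opposite strand, from position -28. The Cdx2 window also holds the forkhead letters, from position -40 on the opposite strand, so this motif is found both in a gene that was high on casein diet replicate 1 and in a gene that was dim on all arrays. Lgals4 holds none of the 4 motifs in its window, Foxa3 holds the CDX letters, and Sox2 holds those of CDX and HNF4. A match is a description of the letters, and binding was not measured.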

How the data were processed

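Total RNA of endometriotic lesions was labelled with biotin and hybridised to 4 Affymetrix arrays, per the labels' protocols. Each deposited value is a linear probe set intensity that the authors had normalised before deposit. GCOS and RMA are named in the submitters' processing notes, without version, role or order. Detection calls, scan dates and slides were not used here, so dimness was judged by percentile and no batch could be used. Median intensities were 56.4 and 56.1 on the high-fat diet and 55.1 and 56.5 on the casein diet, and the number of arrays limits the precision.

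Groups come from the sample titles. Log2 was taken with no pseudocount. Of 45101 probe sets, 64 were controls, 34945 had 1 gene symbol in the platform annotation, 932 several and 9160 none. Gene identifiers of 34741 matched RefSeq (GRCm38.p6), which changed 0 symbols. The probe set with the highest mean log2 level was kept for each gene, and the 12797 genes whose mean reached the 40th percentile (intensity 33.9) were tested in limma 3.58.1 (R 4.3.3), with two-sided p-values adjusted by Benjamini-Hochberg across those genes and 3.80 total degrees of freedom. The members, gene lists and tests were chosen with earlier results of these data known. Named genes are the members, the 4 tested genes of a list with the largest absolute difference, and the 5 nearest profiles. All other genes were named after their values were seen. Alternatives were a replicate block, other normalisations, pseudocounts, probe sets and filters, and leaving out each array. Figures used matplotlib 3.10.9.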

Additional observations from a re-analysis of the deposited data

How the results depend on the processing

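The count of 0 genes past the threshold, over all genes and over the lists, was the same in 12 of 13 alternatives, among them the replicate block (0 genes, smallest limma adjusted p = 0.911), although same-numbered arrays did not deviate together (r = -0.02 between their deviations across tested genes). Leaving out each array gave 0 to 17 genes overall and 0 to 10 in the lists, the higher value without casein diet replicate 2, where the lone casein array is assumed to vary like the others. Of those 17, 2 were Foxa1 and Krt20, which had been chosen on this pattern. The median difference of the 10 genes was -4.13 to -0.59 when 1 array was left out, the smallest without casein diet replicate 1, and -2.36 with the replicate block. With a pseudocount of 16 it was -1.82 and with the most variable probe set -2.62. Cdx2 was at -0.13 with its most variable probe set and slightly above 0 without high-fat diet replicate 2 (0.02) and without casein diet replicate 2 (0.04). In an alternative chosen after seeing the data, 9 to 10 of the 10 genes had high-fat arrays below casein arrays when 1 array was left out, against 31.6% to 38.7% of tested genes. That count could not fall below 9, since groups that do not overlap stay apart with fewer arrays, so it is no check. Values near the dim end numbered 22 of 40 and were 13 with the 30th percentile as the limit, 28 with the 50th and 16 with the olfactory receptor limit. No detection call bounds these dim values, so differences among them have no firm order.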

Other observations

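Some gut-associated and uterine genes had another high array, and these are named after their values were seen. Aqp8, a water channel gene of colon epithelium, had intensities of 17.4 and 2165.5 on the high-fat diet, against 152.8 and 60.9 on the casein diet. Guca2b, which encodes uroguanylin, had 53.2 and 721.3 on the high-fat diet, against 85.3 and 2266 on the casein diet. Mmp7, a protease gene of Paneth cells and of uterine epithelium, had 388.1 and 1583 on the high-fat diet, against 372.4 and 805.9 on the casein diet. In all of these 3 genes high-fat diet replicate 2 was far above high-fat diet replicate 1, unlike the 10 identity genes.

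Sox17, a factor of endoderm and of uterine epithelium and vessels, had 1270 and 2391 on the high-fat diet, against 543.6 and 2594 on the casein diet. It was lowest on casein diet replicate 1, the array where Foxa1 and Sox2 were highest. The lysozyme gene Lyz1, listed with Paneth cell products, was bright on all arrays, with 18071 and 16380 on the high-fat diet and 16981 and 17459 on the casein diet. Whether its probe set reads this gene alone was not tested.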
